A study of Drosophila melanogaster with 11 samples.

Results

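In fly embryos with Dam fused to E(spl)m8-HLH, regions of adenine methylation were called as peaks in the same library by MACS and by Qseq. The regions described here are the peaks that MACS called above 20 RPM and that Qseq missed. RPM is the number of reads of a peak per 1000000 reads of the library. A MACS peak was a member of this set when its interval shared no base with any of the 3973 intervals of the Qseq table. Of 4209 MACS peaks above 20 RPM, 1585 (37.7%) were members, and the other 2624 shared at least 1 base with a Qseq peak, called the counterpart below. The members were chosen by the intervals that both programs drew from the same reads. Level, length and overlap are therefore given as descriptions of the members, with no test. The authors' table of weaker MACS peaks, under 20 RPM, was not part of the set, and 94% of its 1310 peaks had no Qseq peak. The Qseq table too was limited to peaks above 20 RPM.

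The study located the sites of Su(H) and of the E(spl) proteins m5 and m8 in embryonic chromatin, with 11 ChIP or DamID libraries of 6 conditions. The peak tables used here belong to m8-DamID, and hold 1 of its 2 libraries. Which of the pair that is was not given in the sources used here. No library of unfused Dam is among the 11, so that methylation brought by the fused E(spl)m8-HLH and methylation by Dam at accessible chromatin cannot be told apart.

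The embryos carried a P-element transgene in which Dam fused to E(spl)m8-HLH stands behind UAS, after removal of a stop cassette flanked by FRT sites. No Gal4 driver was present, and the fusion protein came from the low leaky activity of UAS, in any cell of the embryo. Whole embryos of stage 9 to 16, raised at 26 °C, were pooled, so a peak can come from any tissue, and fewer methylated cells cannot be told apart from less methylation per cell. Reads were 100 bp long, and the RPM values rest on 1925156 reads, so that 1 RPM was 1.93 reads. The members held 39 to 2449 reads each. With a single library in the tables there was no replicate for any value, and every interval given here covers counting error only, since reads made by PCR are not independent molecules.

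The m8 gene of the E(spl) complex is transcribed when Notch is active, through Su(H), and its product represses transcription as a bHLH protein. In the embryonic nervous system the E(spl) genes act in the choice of neuroblasts and later in their lineages. In DamID, the methyltransferase that the protein carries methylates adenines of GATC around its binding sites. The enzyme DpnI cuts only marked sites, between the adenine and the thymine, and the fragments between marked sites are amplified and sequenced. A peak caller then looks for stretches in which reads are denser than it expects, so that the set of peaks depends on the program as well as on the library.

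The reads of a DamID peak come from fragments that end at GATC, and the sequence at members is shown here to place these sites in 6 of the strongest. The windows are from CycE, which encodes the cyclin that drives entry into S phase, and from the 5 members with the highest RPM on 2L and on 3L below 5 Mb, the stretches where the positions of the tables matched Release 6 of the genome. For CycE the 300 bases upstream of a start site are given on the minus strand (chr2L:15746611-15746910). The other windows hold 200 bases of the plus strand around a GATC, at bib (chr2L:9988435-9988634), kon (chr2L:18505326-18505525), IA-2 (chr2L:1007436-1007635), CG11486 (chr3L:3084302-3084501) and bab1 (chr3L:1097502-1097701). All are written 5′ to 3′, read from the Release 6 assembly of RefSeq, and capitals mark GATC. The GATC is the one nearest to the centre of the peak whose window overlaps no annotated UTR. The windows at bib, CG11486 and bab1 lie in introns, those at kon and IA-2 between genes, and that at CycE in CycE and in an exon of the noncoding gene lncRNA:CR44974.
CycE: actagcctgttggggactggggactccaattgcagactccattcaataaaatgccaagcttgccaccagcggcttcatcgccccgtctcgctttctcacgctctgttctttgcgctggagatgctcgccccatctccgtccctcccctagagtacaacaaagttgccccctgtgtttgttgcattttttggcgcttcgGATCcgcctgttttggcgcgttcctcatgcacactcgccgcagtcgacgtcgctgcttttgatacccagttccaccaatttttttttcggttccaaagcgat
bib: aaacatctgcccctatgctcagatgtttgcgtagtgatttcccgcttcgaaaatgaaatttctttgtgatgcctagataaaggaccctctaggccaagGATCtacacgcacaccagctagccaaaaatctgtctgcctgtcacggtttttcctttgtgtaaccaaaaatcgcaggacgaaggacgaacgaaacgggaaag
kon: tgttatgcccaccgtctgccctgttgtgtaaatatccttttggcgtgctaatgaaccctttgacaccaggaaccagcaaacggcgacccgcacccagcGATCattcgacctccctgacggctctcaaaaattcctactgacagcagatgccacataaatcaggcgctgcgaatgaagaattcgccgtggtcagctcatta
IA-2: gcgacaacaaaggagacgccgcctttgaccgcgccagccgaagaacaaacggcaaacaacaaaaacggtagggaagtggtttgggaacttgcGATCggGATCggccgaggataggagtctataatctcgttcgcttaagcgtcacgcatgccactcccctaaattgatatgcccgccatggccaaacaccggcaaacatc
CG11486: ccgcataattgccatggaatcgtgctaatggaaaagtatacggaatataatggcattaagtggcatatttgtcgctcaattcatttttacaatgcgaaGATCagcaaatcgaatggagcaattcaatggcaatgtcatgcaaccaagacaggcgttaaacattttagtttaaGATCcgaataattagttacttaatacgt
bab1: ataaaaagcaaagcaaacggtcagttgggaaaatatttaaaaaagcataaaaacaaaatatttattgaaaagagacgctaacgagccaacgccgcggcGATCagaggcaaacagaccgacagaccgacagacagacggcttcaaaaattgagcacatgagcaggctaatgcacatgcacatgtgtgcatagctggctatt

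The window at CycE held 1 GATC within 300 bases, and the whole CycE peak of 1617 bp held 3. Of the others, the windows at bib, kon and bab1 held 1 site each, and those at IA-2 and CG11486 held 2. At IA-2 the site shown lay 600 bp to the left of the centre of the peak. At CG11486 it lay 1849 bp to the right, since sites nearer to the centre had a UTR within the window. In these 6 peaks the longest stretch without a GATC was 857 bp at bab1 and 1785 bp at CG11486, with the other 4 between them, against a median of 774 bp over the 373 members of these stretches. None of the windows held CACGTG, the canonical E box, which is why GATC alone is in capitals. Of all windows of 200 bp on 2L, 37.0% held a GATC and 2.36% held CACGTG, and of those of 300 bp, 48.7% and 3.54%.

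On 2L the 282 members held a median of 2.45 GATC sites per kb (95% interval of the median 2.30 to 2.57), and the 474 counterpart peaks held 2.30 per kb (2.12 to 2.43). Sites were absent from the middle of most members. With 3L below 5 Mb added, 29.8% of 373 members (exact 95% interval 25.2% to 34.7%) had a GATC in their central 400 bp, against 38.4% (34.5% to 42.4%) of 602 counterpart peaks and 58.0% of all windows of 400 bp on 2L. A minority of the borders drawn by the programs lay exactly at these sites. Of 887 Qseq peaks there, 21.4% began exactly 2 bases into a GATC, at the cut of DpnI, whereas 7.24% of the members and 8.64% of the counterpart MACS peaks began on the first base of one. In the same way 8.31% of the members ended on the last base of a GATC. The shares of members and of counterpart peaks with such a border were similar. The search ran from 2 bases before to 5 bases after the first base of a GATC. At no offset in this range did the end of more than 0.564% of the Qseq peaks lie. Ends farther from a GATC were not searched, so the values do not show how Qseq ends lie to these sites.

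The 3 other motifs were counted on both strands in whole peaks on 2L, because E(spl) proteins are known to bind such sites. CACGTG was in 17.7% of the members (13.5% to 22.7%) and 15.4% of the counterpart peaks (12.3% to 19.0%). The N box, searched as CACNAG and its reverse complement CTNGTG, was in 77.0% of the members and 75.7% of the counterpart peaks. The class C site, searched as CACGCG and its reverse complement CGCGTG, was in 27.3% (22.2% to 32.9%) and 32.3% (28.1% to 36.7%). Of all windows of 1070 bp on 2L, the median length of a member on these stretches, 12.2% held CACGTG, 73.0% the N box and 17.4% the class C site. The intervals of members and counterpart peaks overlapped for each of the 3 motifs. The central 400 bp gave lower shares in the members for all of them, as a shorter window must. There 3.90% of the members held CACGTG (1.96% to 6.87%), 40.1% the N box (34.3% to 46%) and 8.16% the class C site (5.24% to 12%). The counterpart peaks had 6.12%, 34.6% and 11.8%. All windows of 400 bp on 2L had 4.72%, 39.1% and 6.88%, each within the interval of the members. Whole peaks vary in length, so their shares are not matched to windows of 1070 bp.

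The median level of the members was 45.2 RPM (42.6 to 47.3), with quartiles of 28.6 and 84.1 RPM and a range of 20.3 to 1272 RPM. The counterpart peaks had a median of 60.0 RPM (57.7 to 62.3), quartiles of 37.4 and 102 RPM and a highest value of 1091 RPM. The levels of both sets overlapped over nearly their whole range, and the strongest MACS peak of the library was a member. Members were 222 to 4349 bp long with a median of 1034 bp, and counterpart peaks 228 to 8558 bp with a median of 1170 bp. RPM grows with the length of a peak, and per kb of peak the medians were 42.4 and 49.4 RPM. When all MACS peaks were split into 4 equal groups by length, the levels drew together as peaks got longer. In the shortest group, up to 833 bp, members had a median of 24.4 RPM against 29.1, and in the next group 35.3 against 42.1. From 1107 to 1563 bp the medians were 65.2 and 66.0 RPM, and from 1564 bp on they were 135 and 129.9 RPM. A lower level of the members was thus seen mainly in the shorter groups. Those groups also lay nearest to the limit of 20 RPM in the MACS and Qseq tables, and the parts of length and of this limit were not tested.

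**Figure D1:**
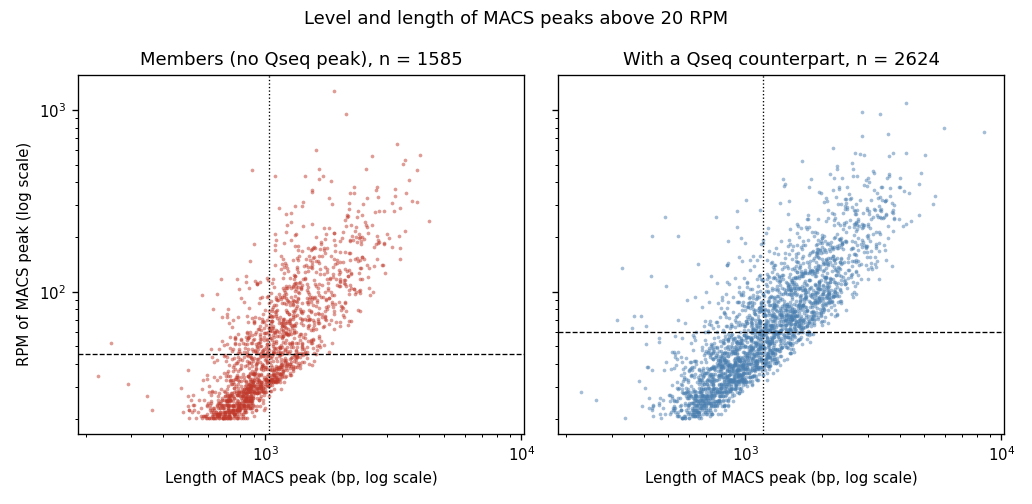
Each point is a MACS peak above 20 RPM, with its length in bp on the x axis and its RPM on the y axis (both log scales), for members on the left and peaks with a Qseq counterpart on the right. Dashed and dotted lines mark the median RPM (45.2 and 60.0) and the median length (1034 and 1170 bp), and members are present up to the top of the scale at 1272 RPM.

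The Qseq table was itself limited to peaks above 20 RPM, and in pairs of 1 MACS and 1 Qseq peak the highest 10% of the ratios of MACS to Qseq RPM were above 1.83. A MACS peak little above 20 RPM can thus lack a counterpart through this limit alone, and how much this adds to the shares at low RPM was not tested. When all MACS peaks were ranked by RPM and split into 10 equal groups, 58.8% of the weakest group were members, 50% of the next and 41.7% of the one after. In the other 7 groups the share stayed between 29.6% and 37.1%, and in the strongest it was 31.2%. Of the 991 MACS peaks of at least 100 RPM, 312 (31.5%) were members, of the 290 of at least 200 RPM, 87 (30%), and of the 25 of at least 500 RPM, 8 (32.0%, exact 95% interval 14.9% to 53.5%). Among peaks well above the limit, a nearly constant share was thus without a counterpart. In 10 groups by RPM per kb the share fell from 77.4% in the lowest to 25.9% in group 5 and rose to 39.4% in the highest. By length, it was 30.2% in the shortest group, 47.8% in the next and 22.6% in the longest. A longer interval has more room to meet another, and the part of this in these shares was not tested. The score that MACS gave the peaks had a median of 154 in members and 176 in counterpart peaks, and the highest score of 3100 was reached in both sets.

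**Figure D2:**
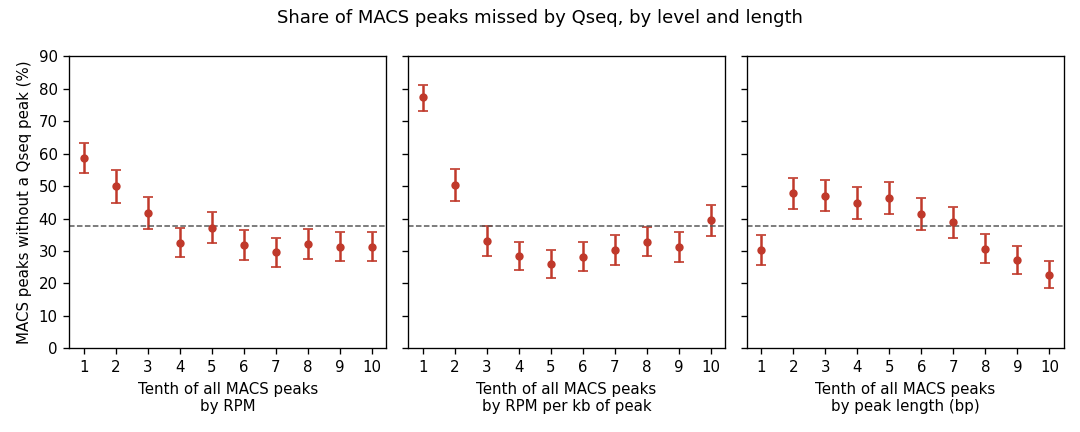
Points give the share of MACS peaks without a Qseq peak (y axis, %) in each of 10 equal groups of the 4209 MACS peaks by RPM, by RPM per kb and by length (x axes, group 1 the lowest), with exact 95% binomial intervals, and the dashed line marks the share over all peaks, 37.7%. The share falls from 58.8% to about 31% by RPM and then stays level, and by RPM per kb it is higher at both ends than in the middle.

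The bases between a member and its nearest Qseq peak numbered 10 to 397728, with a median of 8520. Of the members, 99 (6.25%) had a Qseq peak within 500 bp, 165 (10.4%) within 1000 bp and 861 (54.3%) within 10000 bp. Members of at least 100 RPM had a median distance of 4290 bp, and the 38 of at least 300 RPM one of 4647 bp, with 10 of these within 1000 bp. Among counterpart peaks, Qseq covered a median of 81.0% of the interval, so that overlap was mostly either large or absent. Just inside the rule stood peaks in osp (89.3 RPM, 10 bp from a Qseq peak), CG32773 (48.8 RPM, 11 bp), spri (43.6 RPM, 20 bp), CG6231 (43.1 RPM, 21 bp) and cwo (137 RPM, 21 bp). Just outside it stood peaks in bol (48.3 RPM, 31 bp shared with a Qseq peak), loco (91.4 RPM, 46 bp), fwd (42.1 RPM, 54 bp) and CR41606 (31.7 RPM, 204 bp), and a peak next to CR41609 (23.9 RPM, 205 bp). In each of the first 5 the neighbouring Qseq peak lay in the same gene, and its RPM was lower than that of the member.

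Members were spread over all chromosome arms. They made up 39.4% of the MACS peaks on X, 37.3% on 2L, 38.7% on 2R, 39.3% on 3L and 37.8% on 3R, and 11 of 26 peaks on chromosome 4. In the unplaced sequence the share was lower, 60 of 247 peaks (24.3%, 19.1% to 30.1%), and the 1 mitochondrial MACS peak had a counterpart. On the main arms, the next MACS peak along the chromosome was a member in 37.6% of cases after a member (35.2% to 40.1%) and in 39.0% after a counterpart peak (37.1% to 41.0%). A member was thus followed by another in close to the same share of cases as a counterpart peak was. Of 952 unbroken runs of members, 592 were of 1 peak and 224 of 2. The longest held 9 members over 182 kb of 2L, at Pvf3, Wnt4 and wg among others, with 20.8 to 125 RPM. A run of 7 on 3R from mask to BRWD3 took in crb, which encodes a protein of the apical membrane of epithelia, and reached 376 RPM.

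The reverse comparison was smaller among strong peaks. Of the Qseq peaks, 942 of 3973 (23.7%) shared no base with a MACS peak above 20 RPM, and 864 of these met no MACS peak of either level. On the main arms, 55 of 581 Qseq peaks of at least 100 RPM (9.47%) were without a MACS peak above 20 RPM. Over all sequence, unplaced included, 31.5% of the MACS peaks of that level were without Qseq. The strongest of these Qseq peaks were in CG2991 (1574 RPM), px (1161 RPM) and Eip75B (1038 RPM). At Eip75B both kinds stood side by side, as its 4 members, of 26.0 to 166 RPM, were apart from that peak. Where 1 MACS and 1 Qseq peak paired, in 2269 cases, the MACS RPM was a median of 0.943 times the Qseq RPM, and the MACS interval was 1.23 times as long.

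The members lay inside genes as often as the others. By the gene names beside each peak, 78.5% of the members (76.4% to 80.5%) intersected a gene, against 78.2% (76.5% to 79.7%) of the counterpart peaks. A single gene was named for 64.0% of the members, several for 14.5%, and the remaining 21.5% stood between genes with a median of 37.9 RPM. On 2L and 3L below 5 Mb, transcripts of Release 6 placed the centre of 58.2% of 373 members in an intron, 25.7% between genes and 8.58% in a 5′ UTR. The counterpart peaks had 54.5%, 25.2% and 8.14% in these places. Centres in coding exons were rarer among the members, 1.88% (0.758% to 3.83%) against 5.81% (4.08% to 7.99%). A start site of a protein-coding gene lay in the central 400 bp of 5.90% of the members (3.73% to 8.79%) and 11.1% of the counterpart peaks (8.73% to 13.9%), while 24.7% and 28.7% covered a start site anywhere. These last peaks were also the longer ones, and the part of length in the difference was not tested beyond the values in 4 equal groups of length. In the 2 longer groups, 29.0% and 27.7% of the peaks that cover a start site were members, against 39.4% and 26.6% of those that do not, and in the 2 shorter ones 40.4% and 50% against 43.2% and 45.6%.

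**Figure D3:**
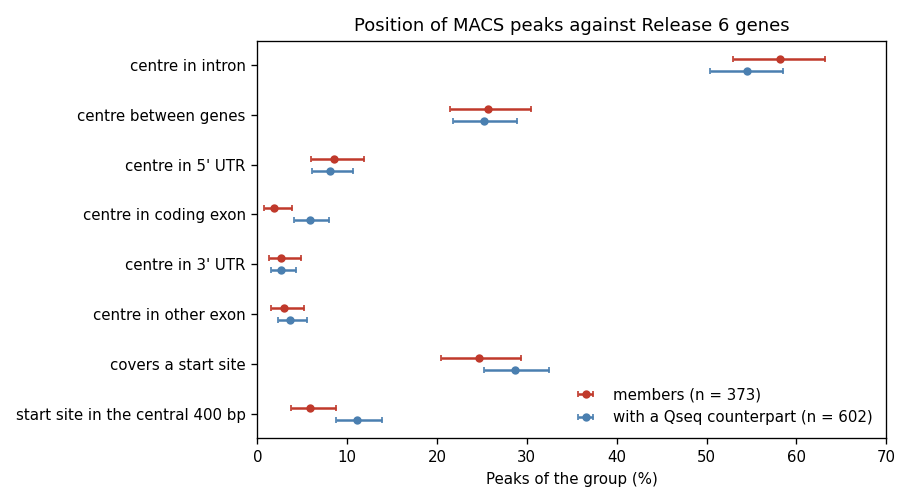
The x axis gives the percent of peaks, with exact 95% binomial intervals, whose centre lies in each gene feature or that hold a start site, for 373 members (red) and 602 peaks with a Qseq counterpart (blue) on 2L and 3L below 5 Mb. Coding exons (1.88% and 5.81%) and start sites in the central 400 bp (5.90% and 11.1%) are the features whose intervals do not overlap or barely do.

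The strongest member was also the strongest of all MACS peaks above 20 RPM. It lay on 2R at 13484744 to 13486604 in the authors' numbering, in lack, the gene of the ubiquitin ligase Smurf that limits Dpp signaling, and in CG11423 and CR43920, and had 1272 RPM (1222 to 1324, exact Poisson interval of 2449 reads). The nearest Qseq peak, of 24.9 RPM, was 17615 bp away, and no Qseq peak named lack. A member in InR, the insulin receptor, on 3R at 17394989 to 17397056 had rank 5 with 946 RPM (903 to 990.4), with the nearest Qseq peak 9981 bp off in the same gene. Qseq had 9 peaks naming InR, up to 297 RPM, none at this place. The third was in CG6191 on 2R at 9470965 to 9474242, with 647 RPM, and the fourth in mnb, a protein kinase gene of brain growth, on X at 17774295 to 17775878, with 600.5 RPM and a Qseq peak of 51.4 RPM at 552 bp. No counterpart peak on X was above 380.2 RPM, so the strongest peak of that arm was a member.

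The next members were in genes of membrane proteins and transcription factors. Gug, the corepressor Atrophin, had a member of 567 RPM on 3L at 8452337 to 8456349. CrebA, the bZIP factor of secretory genes, had one of 562 RPM on 3L at 15527276 to 15529890 and a second of 272 RPM, and no Qseq peak named it. In bib, the neurogenic gene of a membrane protein of the channel family, the member of 529.8 RPM (498 to 563) on 2L at 9986653 to 9990157 was the only MACS peak, with the nearest Qseq peak at 19780 bp. The member in kon, of a transmembrane protein of muscle attachment, had 504 RPM on 2L at 18503892 to 18507347. Sox14, of an HMG box factor, had 473 RPM on 2R, and IA-2, of a phosphatase-like protein of secretory vesicles, had 472 RPM on 2L at 1007325 to 1008943, with no Qseq peak within 46339 bp. These 10 peaks all kept their place as members when a distance of 500 bp to Qseq was asked for, and 9 of them at 1000 bp. On chromosome 4 the highest member was in myo (112 RPM), and in unplaced sequence in CR40581 (169 RPM).

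**Figure D4:**
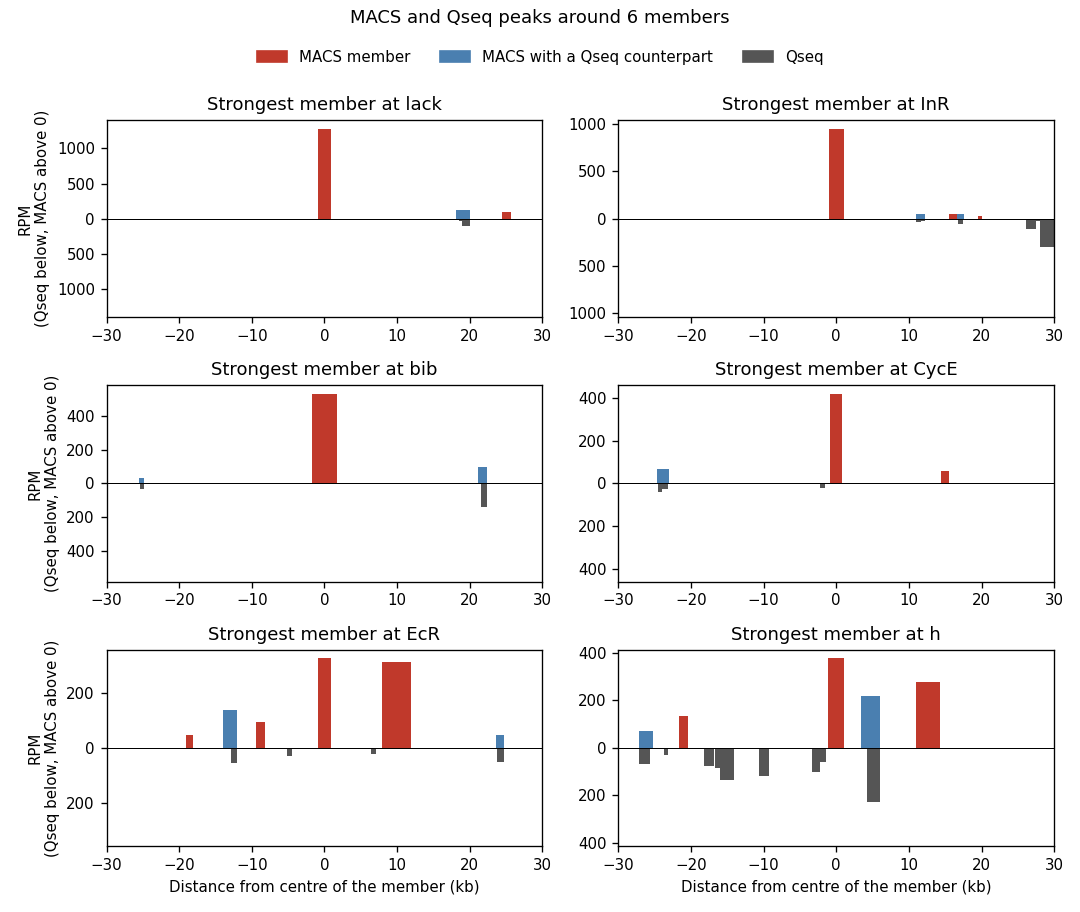
Bars give the RPM (y axis) of MACS peaks upwards and of Qseq peaks downwards within 30 kb of the centre of the strongest member at lack, InR, bib, CycE, EcR and h (x axis, distance in kb), at the width of each peak. Members (red) of 1272 RPM at lack and 946 RPM at InR stand with no Qseq bar beneath them, while counterpart peaks (blue) have a Qseq bar (grey) beneath them.

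Among the cell cycle genes that the study followed, CycE held the strongest member. On 2L at 15745433 to 15747049 the MACS peak had 418 RPM (389 to 447.5, 804 reads) and ranked 49th. It lay inside the gene, which Release 6 places at 15727581 to 15748150 on the minus strand, and covered the start site at 15746610 that 3 of the 6 annotated transcripts use. For m5 and m8 DamID without a driver, the study describes a major peak in the CycE promoter. Whether that peak is this member was not tested. The only Qseq peak inside CycE, at 15744023 to 15744671, had 21.3 RPM and ended 761 bp before the member. The second MACS peak that names CycE, of 68.6 RPM, had a counterpart. stg, the Cdc25 phosphatase that triggers mitosis, had members of 26.5 and 27.5 RPM between genes, the weaker 43 bp from a Qseq peak, while its strongest MACS peak, of 97.1 RPM, had a counterpart. The cyclin-dependent kinase inhibitor dap, with MACS peaks of 51.9 and 31.7 RPM, and E2f, the factor of S phase genes, with 7 MACS peaks of 28.1 to 128 RPM, had no member. In all, 3 of 15 MACS peaks at these 4 genes were members. All 7 MACS peaks at the E(spl) complex, of 78.4 to 418 RPM, had a counterpart.

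Of the other cell cycle genes, 7 of 11 MACS peaks were members. The highest was in Dp, the partner of E2f, with 176 RPM, and no Qseq peak named Dp. Cdk4, the kinase of Cyclin D, had a member of 117 RPM. trbl, an inhibitor of stg, had 2, the higher, of 48.3 RPM, between genes. A member of 29.1 RPM lay in RpA-70 and Mcm2, genes of DNA replication, and Mcm2 too was named by no Qseq peak. Over all 26 gene lists, 160 of 425 MACS peaks (37.6%, 33.0% to 42.4%) were members, which is the share over all MACS peaks, 37.7%. For each single list, too, the interval of the share included 37.7%. In these lists a peak between genes was counted for the genes that flank it.

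In the Notch pathway 8 of 24 MACS peaks were members. numb, of the asymmetrically inherited Notch antagonist, had members of 111 and 106 RPM, while its peak of 268 RPM had a counterpart. spdo, the transmembrane protein that Numb acts on, had a member of 96.6 RPM shared with PH4alphaEFB and no Qseq peak. Tom, of the Bearded family of Notch regulators, had members of 58.2 and 32.2 RPM, and neur, the ubiquitin ligase of the ligand Delta, one of 38.4 RPM. None of the 3 MACS peaks at the listed proneural genes and their partners was a member. Of the peaks at neuroblast regulators, 13 of 45 (28.9%, 16.4% to 44.3%) were members, led by SoxN with 269 RPM, run with 111 RPM, insc, of the spindle orientation machinery, with 91.9 RPM and wg with 89.3 RPM. The peaks at SoxN and run lay between genes, and that at run was 197683 bp from the nearest Qseq peak. Of the repressors related to Hairy, h itself had 4 members, and cwo, a repressor of the circadian clock, 1.

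The 4 members at h lay between genes, with 123, 133, 377 and 278 RPM along the arm. In the same stretch lay 3 counterpart peaks of 33.8, 72.2 and 217 RPM, and the strongest MACS peak of the locus was thus a member, 268 bp from a Qseq peak of 58.7 RPM. EcR, of the ecdysone receptor, had 5 members inside the gene, of 43.6, 46.7, 96.1, 327 and 314 RPM. Its 2 counterpart peaks had 139 and 45.7 RPM, and the 4 Qseq peaks in it did not exceed 54.5 RPM. At EcR the 2 strongest MACS peaks therefore had no Qseq peak. sty, of Sprouty, the antagonist of receptor tyrosine kinases, also had 5 members, beside 5 counterpart peaks of 37.4 to 133 RPM. The members of 96.6, 308 and 81.6 RPM lay between genes, and those of 85.2 and 85.2 RPM inside sty. InR had members of 45.2 and 23.9 RPM besides that of 946 RPM.

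Of MACS peaks at Hedgehog genes, 8 of 12 (66.7%, 34.9% to 90.1%) were members, with 361 RPM in the receptor gene ptc, 108 RPM in ci, the transcription factor of the pathway, and lower values at en and inv, up to 42.6 and 32.7 RPM. In the EGFR and Ras pathway 13 of 32 were members, with 348 RPM in aop, the ETS repressor Yan, whose peak covered a start site, 178 RPM in pnt, its activating counterpart, and 99.2 RPM in Egfr, which no Qseq peak named. The Dpp pathway had 10 of 27, and after lack these were led by shn (297 RPM), a zinc finger factor of the pathway, dpp (82.1 RPM), the ligand, and Mad (71.7 RPM), its transducer. The Wingless pathway had 13 of 31, among them sgg (192 RPM), the kinase GSK3, and the ligands Wnt5 (90.9 RPM) and Wnt4 (59.7 RPM), neither named by a Qseq peak. Of the Hippo genes 3 of 17 were members, led by the kinase gene wts (175 RPM), and of the insulin and TOR genes 4 of 13, with foxo at 50.4 RPM. The intervals of all these shares included 37.7%.

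Peaks at ecdysone response and nuclear receptor genes were members in 17 of 39 cases. After EcR came ERR, of the estrogen-related receptor, with 234 RPM and no Qseq peak naming it, Eip75B with 166 RPM and Hnf4 with 163 RPM. Eip74EF, an ETS factor induced by ecdysone, had 4 members of 21.8 to 52.5 RPM, no counterpart peak and no Qseq peak. At Polycomb and trithorax group genes 7 of 11 MACS peaks (63.6%, 30.8% to 89.1%) were members, in ph-d (331 RPM), osa (183 RPM), Psc (59.7 RPM) and pho (21.8 RPM). No Qseq peak named any of these 4 genes, but the same held for 55.1% of all genes that members named, a share raised by the rule itself. At homeotic and temporal factor genes 13 of 31 were members, led by Abd-B (116 RPM), hth (93.0 RPM), Antp (79.5 RPM) and grh (62.9 RPM, between genes). The intervals of the shares of these lists included 37.7%, the share over all MACS peaks.

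In the lists of differentiated tissues, axon guidance genes had 15 members among 27 peaks (55.6%, 35.3% to 74.5%), with Dscam (349.6 RPM), an adhesion molecule of neurites, sli (241 RPM), the midline repellent, its receptor gene lea (100.3 RPM) and Sema-2a (70.1 RPM). Muscle genes had 10 of 19, among them kirre and rst (156 RPM, 1 peak), which act in myoblast fusion, bap (78.4 RPM) and how (69.1 RPM). Gut genes had 5 of 15, with srp (155 RPM), fkh (75.3 RPM) and cad (48.8 RPM), and tracheal genes 8 of 26, with dys (152 RPM), kni (105 RPM), the FGF receptor gene btl (82.1 RPM) and vvl (79.5 RPM). Glial genes had 3 of 13, with wrapper (55.6 RPM) beside pnt. For markers of neurons and germ cells few MACS peaks existed. Of 3 at neuron genes 1 was a member, at Syt1 (149.6 RPM), next to daw. Of 2 at germline genes 1 was a member, in piwi (26.5 RPM). Of 3 MACS peaks at ribosomal protein genes 1 was a member, of 55.1 RPM next to RpS7. Of 5 at cell death genes 1 was a member, of 43.6 RPM between grim and rpr. The peaks given for lea, bap, fkh, cad, dys, kni and vvl lay between genes. None of the 6 MACS peaks at ion channel genes was a member, with an exact interval up to 45.9%. The intervals of all shares in these lists included 37.7%, the share over all MACS peaks.

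**Figure D5:**
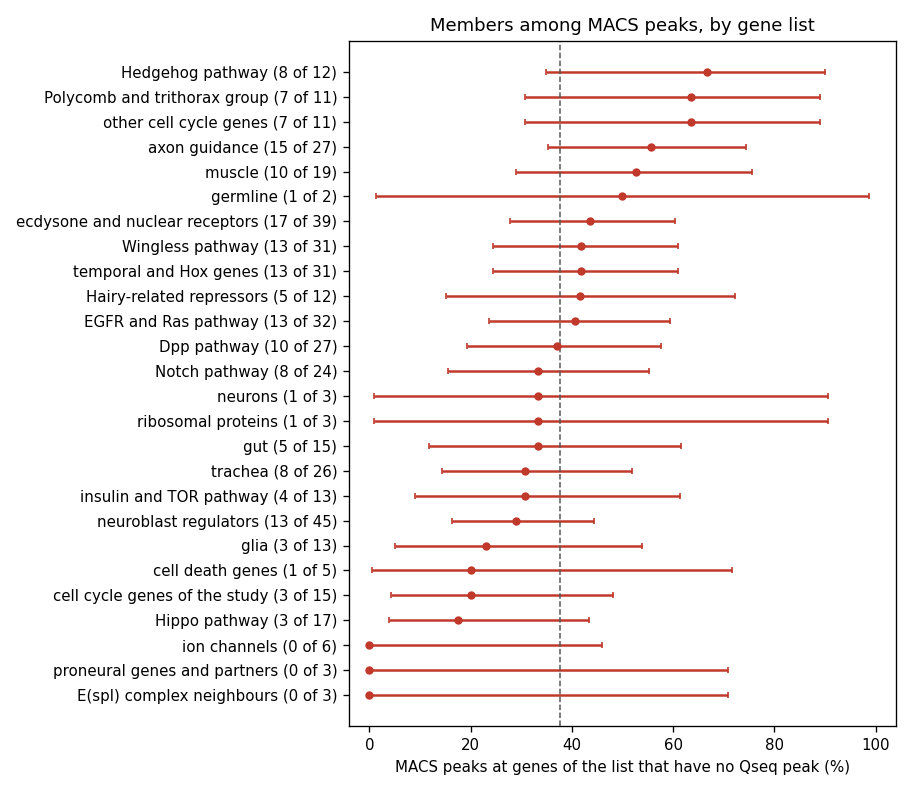
For each of 26 gene lists, the x axis gives the percent of MACS peaks at its genes that had no Qseq peak, with exact 95% binomial intervals and the counts in the labels, and the dashed line marks 37.7%, the share over all MACS peaks. Hedgehog genes are highest with 8 of 12 peaks and ion channel genes are among those with 0, and each interval includes the line.

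In all, the members named 1667 genes whose names could be used, of which 95.4% were found in Release 6. Of these genes, 918 (55.1%) were named by no Qseq peak at all, and the other 749 had a Qseq peak elsewhere. The rule leaves a member without a Qseq peak, which raises the 55.1% by construction. The share over all genes named by MACS peaks was not computed, so the value is no result about these genes. Members named 320 genes more than once each, and 34 genes 4 times or more. cv-c had 7 members of 25.5 to 142 RPM beside 7 counterpart peaks. SNF4Agamma, a subunit of the kinase AMPK, had 6 of 29.6 to 103 RPM, jing, a zinc finger factor gene, 6 of 29.6 to 81.0 RPM, and CG1677 6 of up to 173 RPM. With 5 members each came CG42238 (up to 114 RPM) and Pdp1, a bZIP factor gene (up to 55.1 RPM).

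Among the genes with 4 members, CG6175 had values of 83.6 to 355 RPM with no counterpart peak, although 4 Qseq peaks named it. Fas2, an adhesion molecule of axons, had 4 members of 24.9 to 33.2 RPM, and Sdc, the heparan sulfate proteoglycan Syndecan, 4 of 22.3 to 71.2 RPM, and neither had any Qseq peak. SKIP reached 315 RPM, psq 258 RPM, Glut4EF 217 RPM, Rapgap1 151 RPM, nmo, the kinase Nemo, 149.1 RPM and luna 144 RPM. The laminin gene wb reached 119 RPM, CR43314 105 RPM and the teneurin gene Ten-m 92.5 RPM. bs, the serum response factor, reached 74.3 RPM, Hs6st 70.6 RPM, the Toll family gene 18w 70.1 RPM and CG15283 66.0 RPM. Lower values were found at Atf3 (up to 53.5 RPM), fz, a receptor of Wingless (51.9 RPM), CG32773 (48.8 RPM), pum, of an RNA-binding repressor (44.2 RPM), and CG42666 (39.997 RPM).

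Of the 373 members placed on Release 6, 92 covered a start site of a protein-coding gene, and these had a median of 60.0 RPM. By the order of their RPM they began with kon (504 RPM), PAN3, the CG11486 of the table (469 RPM), CycE (418 RPM), aop (348 RPM), CG1146 (304 RPM), aru (277 RPM) and pes (273 RPM). Of these, CG11486, CG1146, aru and pes, like bab1 above, were chosen after their values had been seen. PAN3 belongs to a complex that shortens poly(A) tails, and its peak lay 33 bp from a Qseq peak. The centre of the peak lay in an intron at PAN3, CycE, CG1146, aru and pes, between genes at kon and in a 5′ UTR at aop.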

How the data were processed

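The deposited tables hold DamID peaks of 1 un-driven m8 library. The authors assembled the reads with SeqMan NGen and called peaks with Qseq and, per the sheet names, with MACS, for which no version or setting was stated in the sources used here. The deposited count is the reads of a Qseq peak, and RPM is, as the authors normalized it, reads of the peak per 1000000 library reads. Count and RPM gave a total of 1925156 reads from every Qseq peak within rounding (1925113 to 1925193), and every MACS RPM was a whole number of reads to within 0.01. The deposited MACS score stands in a column named for p-values, has a minimum of 50 and was changed into a date in 2 cells, which were left out. All columns used were matched to m8-DamID, and 0 were left unmatched. The Qseq table was limited by the authors to peaks above 20 RPM with p under 0.05, and their p-values were not used further.

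The submitters' notes name dm6, and a remark beside the Qseq table calls positions on X, 2R and 3R incorrect. Genes named by MACS peaks overlapped their peak in Release 6 in 96.6% of cases on 2L and in 100% on 3L below 5 Mb, but in 48.7% on the rest of 3L, 30% on chromosome 4, 2.95% on X and 0% on 2R and 3R. Sequence and transcripts were therefore used on 2L and 3L below 5 Mb alone, and other positions are in the authors' numbering. No genome of that numbering was used here.

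Intervals were compared base by base, inclusive of both ends. A gene was taken from the names a peak intersects, or from its flanking genes where it intersects none. Names that had lost a part at a bracket were left out, so that the E(spl) peaks were placed by their neighbours. Medians have order-statistic intervals, shares exact Clopper-Pearson intervals and single peaks exact Poisson intervals, all of 95% and for counting error only. The code was tested on simulated intervals. With 1 library no test between groups was possible. The text names the genes of the study's cell cycle comparison, those at the 10 highest members and at the highest of each arm, up to 4 genes per list, 5 peaks on either side of the rule and genes named by 4 or more members. Members and lists were chosen with earlier results of these data known. The alternatives concerned the overlap, the level, the arms, the length, the gene source and the sequence window. The tools were pandas 2.3.3, numpy 2.4.6, scipy 1.17.1 and matplotlib 3.10.9 under Python 3.11.15.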

Additional observations from a re-analysis of the deposited data

Results flagged for a closer look

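The comparisons above do not use the authors' second MACS table. This table holds 1310 peaks of 6.75 to 19.7 RPM, and 1231 of them (94%) shared no base with a Qseq peak. These 1231 peaks had a median of 13.5 RPM, and the fewest reads in a peak of the table were 13. The Qseq table was limited to peaks above 20 RPM, and the lowest had 20.3 RPM, so that the limit and a difference between the programs cannot be told apart here.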

How the results depend on the processing

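Of 42 alternatives computed, 22 stayed close to the values above, 18 moved and 2 turned a direction. A count was called close within a wide fold limit, and other values only within the interval of the reported value. With 50% of the interval free, the count of 1962 was thus close, while the same change as a percent, 46.6%, moved. Some could not move by construction, such as the named members with 50% free. The tally is therefore no measure of robustness. The number of members was 1962 when 50% of the interval had to be free of Qseq, 1486 and 1420 with no Qseq peak within 500 and 1000 bp, 1525 on the main arms, and 1585 with a second Qseq table of the same peaks added. It fell to 875 of 2723 among MACS peaks of at least 40 RPM, by construction. The ratio of median RPM, members to counterpart peaks, was 0.753 (0.683 to 0.820). It was 0.899 with 50% of the interval free and 0.860 per kb. In the 4 groups of length from short to long, it was 0.839, 0.840, 0.988 and 1.04. The last turned the direction, but its interval, 0.92 to 1.22, included 1. The ratio of median length was 0.884, and 1.01 with 50% free, also turned. The share inside genes was 74.6%, 75.2%, 80.7% and 87.5% in the 4 groups of length and 83.1% by Release 6 gene spans. The share at listed genes was 36.6% for peaks that intersect them and 34.1% with no Qseq peak within 500 bp. In the central 400 bp of members on 2L the median GATC density was 0 per kb. There 3.90% held CACGTG, 40.1% the N box and 8.16% the class C site, shares that a shorter window lowers by construction. For 3L below 5 Mb added to 2L, and for main arms alone in the ratio of RPM, which were chosen after seeing the data, no value moved. The cause of the other changes was not tested.

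No paired analysis was possible because only 1 library is in these tables, and no replicate was there to be left out. A peak of 20 RPM rests on 39 reads, which limits what the weakest members can show, and no unfused Dam library bounds the signal of any of them.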
